A study of Mus musculus with 9 samples.

Results

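Cells of the embryonic mouse forebrain that received a GemC1 plasmid were compared with cells that received only a fluorescent reporter, and the genes outside the cilium and centriole lists were followed. All samples were GFP-positive cells sorted from forebrains of the strain C57Bl6DBa2 at E16.5 (embryonic day), labelled as neural progenitor cells, 2 days after plasmids had been brought in by electroporation in utero at E14.5. The GemC1 group received pCAGGS-GemC1 and the control group H2B-GFP, a histone fused to a green fluorescent protein; the labels describe the factor plasmids as given with or without the reporter. The members were the samples whose titles name GemC1 or GFP, 3 and 3 libraries, or 6 of the 9 in the series. The other 3 libraries, given pCAAGS-Mcidas, entered the same fit, so they share its estimate of the spread, and their values stand beside the GemC1 ones where the factors are compared. A fit of the 6 GemC1 and GFP libraries alone called 745 genes higher and 206 lower, 668 and 165 of them shared with the calls of the fit used here. The pCAGGS backbone is a ubiquitous promoter, so it set no limit of cell type among the cells that took up the plasmid. The sort took every GFP-positive cell. Whether the 3 libraries of each kind stem from different litters is not in the labels; the p-values reflect only how far these samples scatter, which may be technical.

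GemC1, encoded by Gmnc, is a nuclear coiled-coil protein related to geminin. In ependymal cells, which line the brain ventricles, and in other multiciliated cells it works upstream of Mcidas and Foxj1, with E2F factors as partners, to start the building of many motile cilia. A cell that takes this path leaves the cell cycle and also changes its surface, its transport proteins and its energy supply, and in the forebrain the same progenitors otherwise yield neurons, with their own adhesion, guidance and channel genes.

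Of the 3 genes that mark the experiment, Gmnc was as the labels have it, and Foxj1 and Cdkn1a were also higher in GemC1. Gmnc (chromosome 16, 26913553 to 26991652, build mm10) had 8255, 6591 and 9651 counts in GemC1 replicates 1, 2 and 3 and 0 in each GFP library, at least 3302-fold higher against 3 counts per GFP library. Reads of the plasmid and of the chromosomal gene are not told apart. Foxj1 (chromosome 11, 116330704 to 116335399), a forkhead factor of motile ciliogenesis, stood at 121, 99.6 and 139.9 CPM in GemC1 and at 1.06, 1.52 and 0.51 in GFP. CPM are counts scaled by library size. Cdkn1a (chromosome 17, 29090976 to 29100727), which encodes the cell cycle inhibitor p21, stood at 50.4, 33.5 and 46.3 CPM against 4.23, 3.12 and 2.58. No library of a group overlapped the other group in any of the 3 genes. In all that follows, values of single libraries are in the order of replicates 1, 2 and 3, changes are log2 fold changes of GemC1 over GFP with their standard error (SE), and "called" means an adjusted p under 0.05 in edgeR's quasi-likelihood test with Benjamini-Hochberg adjustment over 19572 genes.

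Total counts were between 28515241 and 30288663 in GemC1 and between 34417359 and 41163917 in GFP. A floor of 3 counts stood at 0.0729 to 0.105 CPM before scaling in these 6 libraries. Mitochondrial genes took between 0.279% and 0.395% of their counts. Floors and intervals cover counting error only, because amplified reads carry no molecular identifiers. The Mcidas files carry another year code than the other 6; if that marks a batch, it cannot be told apart from the Mcidas group.

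The genes that rose and those that fell differed in number, size and steadiness. Of the 19572 genes tested, 756 were higher in GemC1 (3.86%) and 259 were lower (1.32%). Of the higher genes 259 stood in the cilium and centriole lists, and 497 did not. Those 497 had a median change of 1.72, against 2.91 for the listed ones; 323 of them changed at least 2-fold and 227 at least 4-fold. The lower genes had a median change of 0.51 in size, 160 of the 259 changed by less than 1.5-fold, and 40 (0.204% of genes tested) fell at least 2-fold, beside 531 (2.71%) that rose that much. Across all genes the median change was -0.00038.

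Level and precision went with this split. The median of the average log2 CPM was 3.08 among higher and 6.15 among lower genes, and the median SE was 0.34 and 0.12. At an average log2 CPM of 5 or more, 159 genes were higher and 180 lower, and the smallest change called was 0.27. Below an average of 2 the numbers were 253 and 22, and the smallest change called was 0.91. A fall of the median size was thus not detectable there at this depth. Among called genes the 3 GemC1 libraries shared the change evenly. Relative to the GFP mean, the median higher gene lay at 1.84, 1.78 and 1.97 on the log2 scale and the median lower gene at -0.53, -0.57 and -0.50. The groups' libraries did not overlap in 753 of the 756 higher and in all 259 lower genes. Over all genes tested 13.2% were apart in the higher and 11.7% in the lower direction. The genes were called from these same libraries, so the choice itself favours even libraries and a lack of overlap.

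Leaving out each of the 9 libraries in turn separated the directions further. All 9 fits kept the call for 399 of the 756 higher genes (52.8%) and for 19 of the 259 lower genes (7.34%). Without GFP replicate 3 the calls numbered 443 higher and 32 lower, and without GFP replicate 2 they numbered 472 and 42; of these lower calls 30 and 40 were among the 259. Removing GemC1 replicate 1 or 2, or Mcidas replicate 2, gave 162, 161 and 163 lower calls, of which 91, 92 and 153 were among the 259. The 19 lower genes included Nuak1, Dyrk1a, St6gal2, Ccnj, Ptpn4, Nvl, Slc12a1, L1cam, Clmp, Pphln1, Adamts2, Ppp1r16b, Cdk19, Kcna1, Zfp708, Rc3h2, D430019H16Rik and Gm28557. Kinases (Nuak1, Dyrk1a, Cdk19), surface proteins (L1cam, Clmp), channels and carriers (Kcna1, Slc12a1) and a sialyltransferase (St6gal2) are among them.

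**Figure D1:**
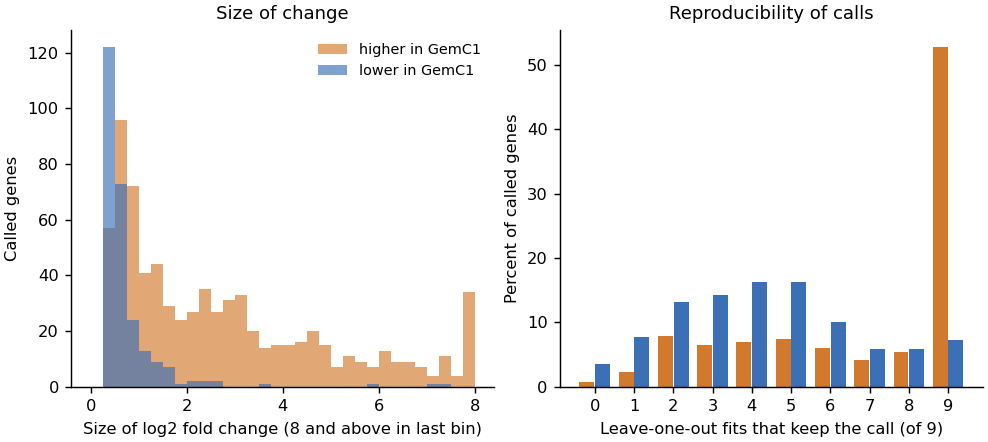
Left, number of called genes (y axis) by size of the log2 fold change (x axis, steps of 0.25); right, percent of called genes (y axis) by how many of 9 leave-one-out fits kept the call (x axis), orange for genes higher and blue for genes lower in GemC1. Lower genes crowd at small changes and spread over the leave-one-out scale, while 52.8% of the higher genes sit at 9.

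The 4 broad classes described next were metabolism, membrane, adhesion and neuronal, made of 54 lists of gene families and pathways. Metabolic genes were called only upward, neuronal and adhesion genes more often downward. Of 575 metabolic genes 34 were higher (5.91%) and none lower; of 886 membrane genes 39 were higher and 11 lower; of 343 adhesion genes 6 were higher and 14 lower (4.08%); and of 350 neuronal genes 9 were higher and 22 lower (6.29%). Beside these stand the 3.86% and 1.32% of all genes. Those shares vary with level. Below an average log2 CPM of 2, 253 of 6962 genes were higher and 22 lower. At 5 or more, 159 of 7149 were higher and 180 lower. The classes were not matched to all genes by level. The count of 0 lower metabolic genes is edgeR's; 22 fell at an unadjusted p under 0.05, and DESeq2 called 7. The class medians were 0.08, -0.00, -0.02 and -0.15. Libraries lay apart in the lower direction for 92 neuronal genes (26.3%) and in the higher direction for 21 (6.0%). In metabolism the same shares were 5.91% and 20.7%. These are descriptions of the lists beside all genes, with no test of the lists. The lists were made with earlier results of these data known, so the shares may partly follow from that choice. Genes are named by a fixed rule, and called members named beyond it to complete a list (Lpcat1, Prdx4, Cyp46a1, Ctss, Anxa5, Adgrl2, Stx16 and those said to be outside the naming rule) were chosen after their values were seen.

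**Figure D2:**
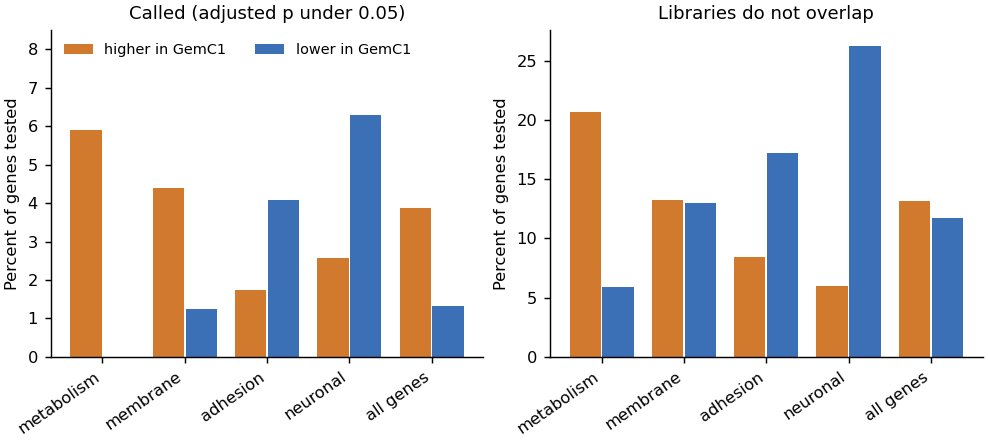
Percent of tested genes (y axis) that were called (left) or whose GemC1 and GFP libraries did not overlap (right), for the 4 classes and for all genes; orange bars are higher and blue bars lower in GemC1. Metabolism has no lower call, and the neuronal bars are at 6.29% lower and 2.57% higher against 1.32% and 3.86% for all genes.

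The 10 genes outside the cilium lists that rose most by fold, of those called without overlap and averaging 2 or more in log2 CPM, come first. Syt10, a synaptotagmin that senses calcium on vesicles (chromosome 15, 89782393 to 89841860), had 198, 145 and 168 counts in GemC1 and 1, 3 and 0 in GFP, a ratio of 156.4 (95% exact counting interval 60.7 to 576.1). Shisa8, a membrane protein of the Shisa family that binds glutamate receptors, stood at 46.4, 31.3 and 42.4 CPM against 0.794, 0.516 and 0.36, a change of 6.16 ± 0.41 (SE, adjusted p = 4.87e-06). Pcsk6, a protease that cuts secreted precursors, rose by 5.68 ± 0.58, from 6, 11 and 0 counts to 247, 238 and 234. The groups were far apart in all of these.

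Kndc1, a guanine nucleotide exchange factor of dendrites, rose by 5.42 ± 0.59 on the log2 scale, and its GFP libraries were uneven at 0.676, 1.08 and 0.06 CPM. Tm4sf1, a membrane protein of the transmembrane family, rose by 4.98 ± 0.78, and Rd3, known for cyclase transport in photoreceptors, by 4.91 ± 0.51. Lrrc10b rose by 4.89 ± 0.71, the kinases Map3k19 and Mapk15 by 4.81 ± 0.63 and 4.75 ± 0.35, and Fhad1, a protein with a forkhead-associated domain, by 4.75 ± 0.45. Each of these 10 genes kept its call in all 9 leave-one-out fits. The lists that set cilium genes aside were made by hand, so some of these genes may also work at cilia.

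The genes with the smallest adjusted p outside the lists were changed with little spread, which a ranking by p favours. Pidd1, the scaffold of a caspase-activating complex (chromosome 7, 141438113 to 141444025), stood at 128, 113 and 131 CPM in GemC1 and at 20.8, 18.9 and 24.9 in GFP, a change of 2.53 ± 0.13 (SE, adjusted p = 9.49e-07). Stox1, a winged-helix protein, rose by 3.01 ± 0.18 (adjusted p = 1.31e-06) and Lhfpl2, a tetraspan membrane protein, by 2.15 ± 0.13 (adjusted p = 1.57e-06). E2f7, a repressor of cell cycle genes, stood at 78.2, 82.0 and 87.7 CPM against 25.4, 24.1 and 23.3. Chrna3, a subunit of nicotinic acetylcholine receptors, rose by 3.96 ± 0.29, from a mean of 0.68 to 10.5 CPM. In E2f7 the GemC1 libraries differed among themselves by less than they differed from GFP.

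**Figure D3:**
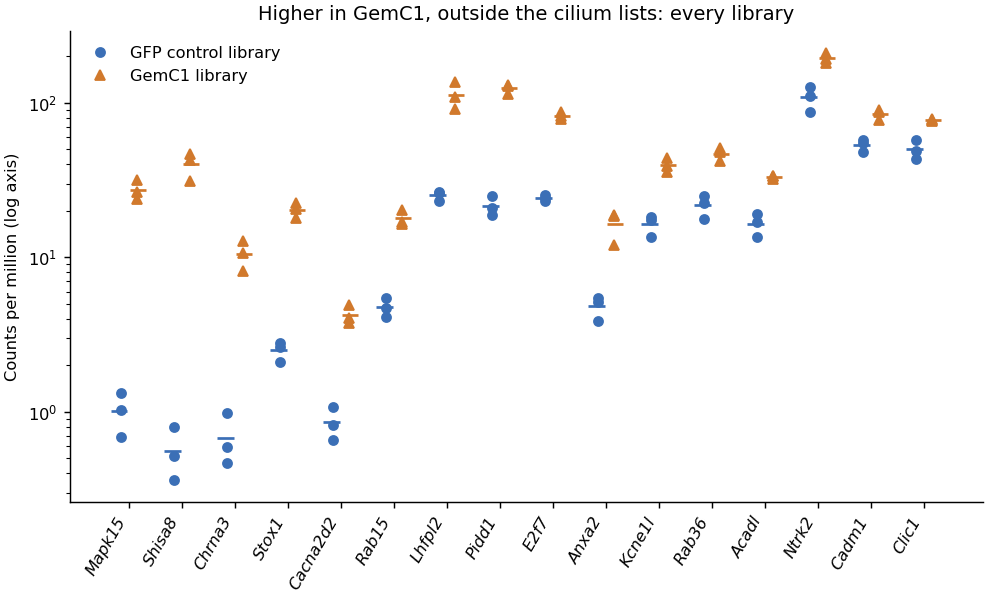
CPM of 16 higher genes outside the cilium lists (y axis, log scale) in each library, blue circles for GFP and orange triangles for GemC1, with a short line at each mean. For every gene plotted the 3 GemC1 libraries lie above the 3 GFP libraries; Pidd1 sits between 113 and 131 CPM against 18.9 to 24.9.

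Promoters were searched for motifs of factors known from ciliated cells, in RefSeq windows of GRCm38.p6 from 250 bases before to 50 after the start, on both strands. GTTGCCATG, a sequence bound by RFX factors, was in 13 of 213 promoters of higher cilium-listed genes (6.1%), in 7 of 361 of higher genes outside the lists (1.94%), in 1 of 171 of lower genes (0.585%), in 0.724% of 12021 promoters of tested genes and in 0.759% of 27025 promoters in the table. GTAAACA, a forkhead sequence, was in 6.1%, 2.22%, 1.17%, 2.53% and 3.55% of them, and CAGATG, an E-box, in 13.6%, 14.7%, 11.1%, 12.0% and 17.2%. A match describes the letters in the window and is no evidence of binding. The 7 genes outside the lists were Fndc9, Dlec1, Cfap97d2, C130026L21Rik, Mzf1, Caly and Pak4. The 3 with the largest change are shown, because they place the motif at different distances from the start; capitals mark the motif or its reverse complement, the sequences are 5′ to 3′ along the gene's strand, all plus, at chr9:119102259-119102558, chr11:46235307-46235606 and chr8:13705639-13705938.
Dlec1: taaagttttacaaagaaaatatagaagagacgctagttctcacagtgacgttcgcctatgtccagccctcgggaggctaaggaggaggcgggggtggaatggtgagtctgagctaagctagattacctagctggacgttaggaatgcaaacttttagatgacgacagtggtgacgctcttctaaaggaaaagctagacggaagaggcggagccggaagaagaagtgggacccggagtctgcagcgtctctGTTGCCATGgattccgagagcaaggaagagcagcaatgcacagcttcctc
Fndc9: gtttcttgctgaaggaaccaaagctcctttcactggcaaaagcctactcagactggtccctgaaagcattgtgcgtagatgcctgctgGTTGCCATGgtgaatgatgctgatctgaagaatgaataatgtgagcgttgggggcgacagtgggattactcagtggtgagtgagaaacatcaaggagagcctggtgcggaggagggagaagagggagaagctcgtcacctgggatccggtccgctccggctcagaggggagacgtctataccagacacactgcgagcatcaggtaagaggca
Cfap97d2: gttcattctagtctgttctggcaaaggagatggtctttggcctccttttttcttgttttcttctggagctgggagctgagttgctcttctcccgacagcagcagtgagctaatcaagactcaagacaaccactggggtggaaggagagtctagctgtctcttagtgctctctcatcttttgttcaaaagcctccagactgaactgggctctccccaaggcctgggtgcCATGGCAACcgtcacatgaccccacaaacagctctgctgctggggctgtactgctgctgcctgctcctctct
Dlec1, with the motif beginning at the start itself, stood at 8.99, 5.39 and 8.32 CPM in GemC1 and at 0.794, 0.319 and 0.42 in GFP, a change of 3.89 ± 0.47 (SE, adjusted p = 0.000277). Fndc9, with the motif 162 bases before the start, rose by 3.39 ± 0.39, and Cfap97d2, with the reverse complement 22 bases before it, by 2.87 ± 0.46. Its name ties Cfap97d2 to cilia although the lists did not hold it. The 1.94% is thus no share of genes without a part in cilia. Caly, a neuronal vesicle protein, rose by 1.25 ± 0.31 with the motif 48 bases before the start.

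In metabolism, few energy and lipid enzymes were called. Higher calls made up 1.35% of nuclear respiratory chain genes and 4.35% of glycolysis genes, beside 3.86% of all genes. They made up 4.55% of the fatty acid list and 8.33% of the phospholipid and sphingolipid list. Acadl, the long-chain acyl-CoA dehydrogenase of fatty acid oxidation (chromosome 1, 66830839 to 66863277), stood at 33.7, 33.8 and 32.3 CPM in GemC1 and at 17.1, 19.1 and 13.5 in GFP, a change of 1.005 ± 0.15 (SE, adjusted p = 0.00178). Cox6b2, a tissue-restricted subunit of cytochrome c oxidase, stood at 5.25, 5.18 and 5.03 CPM against 1.18, 0.958 and 0.93, a change of 2.33 ± 0.34 (adjusted p = 0.00125). It was the 1 called gene of 74 nuclear respiratory chain genes. Aldoc, the aldolase of glia, rose by 0.53 ± 0.12 (adjusted p = 0.0183) and was the 1 of 23 glycolysis genes called. None of 89 genes of the citric acid cycle, the mitochondrially encoded respiratory chain, cholesterol synthesis and cyclic nucleotide enzymes was called by edgeR, with 9 higher and 5 lower at an unadjusted p under 0.05 and 3 and 2 by DESeq2.

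Lipid handling gave 6 called genes. Cds1, which makes CDP-diacylglycerol for phosphatidylinositol, stood at 13.9, 10.6 and 13.3 CPM against 3.12, 1.28 and 1.92, a change of 2.59 ± 0.44 (SE). Plpp3, a lipid phosphatase of the cell surface, rose by 0.45 ± 0.09, Agpat4, an acyltransferase, by 0.41 ± 0.11, and Fads2, a fatty acid desaturase, by 0.30 ± 0.08. The last phospholipid gene called, Lpcat1, outside the naming rule, rose by 0.27 ± 0.07. Cds1 and Acadl kept their calls in all 9 leave-one-out fits, Plpp3 in 7, Fads2 in 3, Agpat4 in 1 and Lpcat1 in none.

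Detoxification and redox enzymes come next. Of 51 glutathione and redox genes 4 rose (7.84%), beside 3.86% of all genes. Gsta4 rose by 1.09 ± 0.21 (SE) and Gstm1 by 0.85 ± 0.18, both glutathione transferases. Hmox1, the haem oxygenase, rose by 1.48 ± 0.31, and Prdx4, a peroxiredoxin of the secretory pathway, by 0.49 ± 0.12. Of 9 leave-one-out fits 8 kept the call of Gsta4, 7 that of Hmox1, 6 that of Gstm1 and 4 that of Prdx4. The glucuronosyltransferases look more numerous than they are. Their 9 Ugt1a names, of which the list held 6, share 1311 exon bases, at least 58.9% of Ugt1a1's exons, and all had changes between 2.98 and 3.08; they are read here as 1 signal. Ugt1a1 stood at 5.11, 6.10 and 6.97 CPM against 0.441, 0.663 and 1.14. With the Ugt1a names counted once and the cilium-listed members left out, 24 of 564 metabolic genes were higher (4.26%), beside 2.63% of all genes outside the cilium lists.

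Phosphotransfer kinases, which move phosphate between nucleotides, had 5 of 20 members called, and all 5 stand in the cilium lists. Ak7 rose by 5.54 ± 0.62 (SE), Ak9 by 6.10 ± 0.68 and Nme5 by 3.53 ± 0.29. Among amino acid genes Dglucy, which breaks down D-glutamate, rose by 1.39 ± 0.25 and Gatm, the first enzyme of creatine synthesis, by 1.31 ± 0.26, 2 of 45. Pfas of purine synthesis rose by 0.65 ± 0.14, and the dehydrogenases Dhrs13 and Sdr42e1 by 0.81 ± 0.15 and 1.39 ± 0.31. Slc4a11, a membrane transporter listed with acid-base genes, rose by 1.40 ± 0.31. Cyp46a1, the brain's cholesterol hydroxylase, stood at 11.5, 8.77 and 13.8 CPM against 6.29, 4.13 and 2.16 and kept its call in 2 of 9 leave-one-out fits.

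Of 39 lysosome genes 4 were higher. Among them the proteases Ctsh and Ctss rose by 3.93 ± 0.57 and 2.44 ± 0.63 (SE), and the protease Ctsd by 0.39 ± 0.08. Ctsd shares 34.4% of its exon bases with Gm49369. Ctss and Ctsh are also abundant in macrophages and microglia, whose markers were higher in GemC1; their part in the result was not tested. The number of metabolic genes called higher was 34 with all libraries, 18 without GFP replicate 3, 21 without GFP replicate 2 and 22 without GemC1 replicate 2; at most 4 were lower without any 1 library.

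Genes that are known for metals and lipids but stand in no list were also among those called; they were chosen after their values were seen. Mt1 and Mt2, the metallothioneins, stood at 86.8, 84.2 and 94.3 CPM against 31.5, 32.7 and 19.7 for Mt1, a change of 1.66 ± 0.27 (SE), and Mt2 rose by 1.45 ± 0.26. Pltp, a phospholipid transfer protein, rose by 2.83 ± 0.32, Sord, the sorbitol dehydrogenase, by 1.497 ± 0.23, and Pnpla2, the adipose triglyceride lipase, by 0.80 ± 0.15. In all, 405 of 496 higher and 205 of 252 lower gene symbols outside the cilium lists stood in no list.

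Membrane genes moved in both directions. Kcne1l, an accessory subunit of potassium channels (chromosome X, 142304752 to 142306294), stood at 43.6, 39.0 and 35.8 CPM in GemC1 and at 18.2, 17.3 and 13.6 in GFP, a change of 1.27 ± 0.18 (SE, adjusted p = 0.000779). It was the 1 of 72 potassium channel genes that rose. Another 4 fell, among them Kcna1, Kcnj11 and Kcnc2. Kcna1, a subunit that shapes neuronal firing, had 0, 1 and 0 counts in GemC1 and 45, 11 and 37 in GFP, 76.0 times lower with an exact 95% counting interval of 13.3 to 3033. Kcnj11, a pore subunit of ATP-sensitive channels, fell by 0.84 ± 0.19, and Kcnc2, outside the naming rule, had -0.96 ± 0.24.

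Of 11 sodium and 22 calcium channel genes 1 and 2 were called, all higher and all accessory subunits. The list medians were -0.08 and -0.17, and 14 of the 22 calcium channel genes lay below 0. Scn4b, a beta subunit of sodium channels, had 93, 182 and 129 counts in GemC1 and 0 in each GFP library, at least 54.3-fold higher. Cacna2d2, a calcium channel subunit, rose by 2.30 ± 0.27 (SE), from 0.823, 1.08 and 0.66 CPM to 4.05, 3.76 and 4.90, and Cacng4 by 0.51 ± 0.10. No pore-forming subunit of these lists was called. Chloride channel genes gave 4 of 27: Clic6 had 253, 72 and 157 counts against 0, 0 and 11, Clic1 rose by 0.64 ± 0.11, Ano3 by 2.18 ± 0.51, and Ttyh1, outside the naming rule, by 0.36 ± 0.09. P2rx6, an ATP-gated channel, rose by 1.70 ± 0.32, and Asic1, an acid-sensing channel, fell by 0.44 ± 0.09.

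Of 258 solute carriers 8 rose (3.10%) and 2 fell (0.775%), beside 3.86% and 1.32% of all genes. Slc38a3, a glutamine transporter (chromosome 9, 107650634 to 107669530), stood at 20.2, 13.9 and 16.9 CPM against 9.47, 9.80 and 6.99, a change of 0.96 ± 0.18 (SE, adjusted p = 0.00901). Slc25a21, a mitochondrial carrier of dicarboxylates, had 18, 47 and 42 counts against 0, 0 and 4, a ratio of 32.7 (95% exact counting interval 12.4 to 122). Slc12a1, a sodium, potassium and chloride cotransporter known from the kidney, had 0 counts in each GemC1 library and 5, 32 and 34 in GFP, at least 6.38-fold lower. Its counts were 43, 22 and 27 in the Mcidas libraries. Slc24a5, outside the naming rule, fell by 0.94 ± 0.21. The groups did not overlap in any of these carriers, as in 753 of the 756 higher and all 259 lower calls.

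Genes of vesicle traffic and surface scaffolds gave calls in both directions. Rab15, a GTPase of recycling endosomes, stood at 20.2, 16.53 and 17.0 CPM in GemC1 and at 5.44, 4.10 and 4.71 in GFP, a change of 1.92 ± 0.17 (SE, adjusted p = 2.5e-05). Rab36 rose by 1.12 ± 0.16 and Rab7b by 4.61 ± 0.90, and the list of 77 RAB and syntaxin genes had 5 higher and 1 lower, the Golgi syntaxin Stx16 at -0.56 ± 0.12. Most members of that list lay below 0 all the same, 45 of 77, with a median of -0.10. Of 16 annexin and S100 genes 4 were higher, with a list median of 0.70. Anxa2, which binds membrane and actin, stood at 18.4, 18.8 and 12.1 CPM against 5.47, 5.13 and 3.90, Anxa6 rose by 0.87 ± 0.19, Anxa5 by 1.04 ± 0.28 and S100a13 by 1.27 ± 0.32. Msn, which links the membrane to actin at apical surfaces, rose by 0.59 ± 0.11 and Myo7a, a myosin of microvilli, by 3.02 ± 0.70, though its GemC1 replicate 2 was at 0.44 CPM, within the GFP range.

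The tetraspanins Cd82 and Cd63 rose by 2.46 ± 0.37 and 0.51 ± 0.14 (SE), and Ildr2, listed with tight junction proteins, by 1.96 ± 0.37. Of 18 adhesion-type G protein-coupled receptors Adgrb2 rose by 0.88 ± 0.19 and Adgre1, a macrophage marker, by 2.12 ± 0.45, while Celsr2, a planar polarity cadherin, fell by 0.47 ± 0.11 and Adgrl2, a latrophilin, by 0.29 ± 0.08. Among 193 TMEM genes 6 rose (3.11%), beside 3.86% of all genes. Tmem107, Tmem138 and Tmem67 led by adjusted p and all 3 stand in the cilium lists. None of 79 genes of ion pumps, ABC transporters, aquaporins and gap junctions was called by edgeR, with 4 higher and 9 lower at an unadjusted p under 0.05 and 2 and 1 by DESeq2. The 39 higher membrane calls were 18 without GFP replicate 2, 19 without GFP replicate 3, 24 and 25 without GemC1 replicate 1 and GFP replicate 1, and the 11 lower were 2 without either GFP replicate 2 or 3 and 6 without GemC1 replicate 2.

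Adhesion genes fell more often than they rose. L1cam, an axonal adhesion molecule (chromosome X, 73853778 to 73896105), stood at 109, 92.8 and 91.3 CPM in GemC1 and at 138, 145 and 147 in GFP, a change of -0.55 ± 0.10 (SE, adjusted p = 0.00642). Among 43 immunoglobulin adhesion molecules 4 fell. Cadm3 fell by 0.58 ± 0.14, and the others, outside the naming rule, were Ncam1 at -0.40 ± 0.11 and Opcml at -0.56 ± 0.15. Cadm1, a synaptic and epithelial adhesion molecule of the same list (chromosome 9, 47530173 to 47857637), moved the other way, at 89.4, 77.7 and 87.5 CPM against 57.9, 54.9 and 48.0, a change of 0.66 ± 0.11 (adjusted p = 0.00417). L1cam and Cadm1 kept their calls in all 9 leave-one-out fits.

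Receptors with leucine-rich repeats and teneurins gave 3 lower genes of 32 and none higher, with a list median of -0.26. Flrt3, which guides migrating cortical neurons, stood at 82.4, 40.4 and 59.1 CPM against 120, 122 and 140, a change of -1.07 ± 0.25 (SE), Slitrk4, a synaptic organiser, fell by 1.17 ± 0.28, and Tenm4, a teneurin, by 0.34 ± 0.09. Protocadherins differed by cluster. All 13 alpha genes lay apart in the lower direction, with changes between -0.38 and -0.25, and none was called by edgeR, 12 having an unadjusted p under 0.05 and 1 a call by DESeq2; these genes share their constant exons, so they are not separate measurements. Of 21 beta genes, which are single-exon genes, 8 lay apart lower and 1 was called, Pcdhb20 at -0.97 ± 0.23. The 22 gamma genes had a median of 0.00 and none lay apart. Fat4, a giant protocadherin of planar polarity, fell by 0.48 ± 0.12.

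In the matrix, Col4a2, a collagen of basement membranes, stood at 3.49, 4.30 and 4.31 CPM against 5.47, 7.88 and 10.9 and fell by 1.003 ± 0.25 (SE), and Hspg2, the basement membrane proteoglycan perlecan, by 1.47 ± 0.36. Their lists did not lie below 0 as a whole: 12 of 21 laminin and basement membrane genes were above 0 with a median of 0.21, and 24 of 34 collagens with a median of 0.38. Adamts2, which trims procollagens (chromosome 11, 50602084 to 50807573), stood at 14.2, 13.6 and 14.9 CPM against 32.1, 27.4 and 25.2, a change of -0.99 ± 0.16 (adjusted p = 0.00221), and Adamts7 fell by 0.63 ± 0.13. Col26a1 rose by 1.78 ± 0.39, Fbln1, a fibulin, by 0.67 ± 0.13, Cspg5, a brain proteoglycan, by 0.67 ± 0.16 and Hapln3, a hyaluronan link protein, by 1.17 ± 0.29. Itgam, an integrin of macrophages, had 116, 12 and 91 counts against 3, 6 and 2 and shares 68.7% of its exon bases with Gm49368. Ina, a neuronal intermediate filament, fell by 0.37 ± 0.10 and kept its call in none of 9 leave-one-out fits. None of 23 cadherins and catenins was called by edgeR, with 3 higher and 1 lower at an unadjusted p under 0.05 and 1 and 1 by DESeq2. The 14 lower adhesion calls became 2 without GFP replicate 2, 4 without GFP replicate 3, 6 without GemC1 replicate 2 or Mcidas replicate 2, and 9 and 8 without GemC1 replicates 1 and 3. The 6 higher became 2 without GFP replicate 2 and 12 without Mcidas replicate 1.

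Of the neuronal lists, those with most lower calls were cortical neuron transcription factors, with 7 of 57, and migration and growth cone genes, with 5 of 50. Of the transcription factors 12.3% fell and none rose, with a list median of -0.18 and 45 below 0. Bhlhe22, a factor of cortical area and layer identity (chromosome 3, 18054174 to 18057517), stood at 99.1, 62.0 and 60.5 CPM in GemC1 and at 102, 156 and 189 in GFP, a change of -1.01 ± 0.23 (SE, adjusted p = 0.026). GemC1 replicate 1 and GFP replicate 1 were close. Myt1l, which represses non-neuronal genes, fell by 0.45 ± 0.09 and Neurog2, the proneural factor of cortical progenitors, by 0.52 ± 0.11. Others, outside the naming rule, were Sox11 at -0.68 ± 0.17, Hivep2 at -0.63 ± 0.15 and Bcl11a at -0.36 ± 0.09.

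Of 50 genes of neuronal migration and growth cones 5 fell and 1 rose, and 43 were below 0. The list was made by hand with earlier results of these data known, so its membership may partly follow the values. Dpysl2, a collapsin response mediator (chromosome 14, 66802864 to 66868688), stood at 272, 352 and 348 CPM against 412, 489 and 615, a change of -0.64 ± 0.14 (SE, adjusted p = 0.0181). Nuak1, a kinase of axon branching (chromosome 10, 84370905 to 84440597), stood at 17.0, 15.04 and 17.2 CPM against 29.0, 32.4 and 35.1, a change of -0.97 ± 0.13 (adjusted p = 0.000507), the smallest adjusted p of the lower genes under the naming rule. Ppp1r16b, a regulatory subunit of a protein phosphatase, fell by 1.24 ± 0.17 and Nyap2, an adaptor of PI3-kinase in neurons, by 1.07 ± 0.27. Dcx, a microtubule protein of migrating neurons, had a mean of 862.4 ± 57.9 CPM against 1114 ± 58.8 (SD, n = 3) and fell by 0.37 ± 0.08 (SE). Map1a, outside the naming rule, rose by 0.74 ± 0.18.

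Guidance genes moved in both directions. Of 18 Robo, Slit, netrin and Unc5 genes 1 was called higher and 2 lower, with 9 above and 9 below 0 and a median of -0.04, and of 33 semaphorins and plexins 1 was called in each direction, with a median of -0.21. Robo2, a receptor for Slit (chromosome 16, 73891839 to 74411825), stood at 734.6, 713.6 and 820.6 CPM against a GFP mean of 1044 ± 140.4 (SD, n = 3), a change of -0.47 ± 0.10 (SE, adjusted p = 0.0183). Sema3c, a secreted semaphorin, fell by 0.37 ± 0.09 and Rgmb, a repulsive guidance molecule, by 0.41 ± 0.10. In the other direction Plxnc1, a plexin, rose by 0.47 ± 0.12 and Ntn1, a netrin, by 1.25 ± 0.33, from 1.26, 1.99 and 1.29 CPM to 3.24, 3.86 and 3.72. None of 20 ephrin and Eph genes was called by edgeR, with 1 higher and 4 lower at an unadjusted p under 0.05 and 0 and 2 by DESeq2.

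Few genes of the synaptic lists were called. Of 48 listed vesicle release genes 1 fell, Cadps, which primes dense-core vesicles, at -0.44 ± 0.11 (SE), and none rose. The synaptotagmin gene Syt10, which rose as given above, does not stand in that list. Of 31 postsynaptic scaffold genes 3 fell and 2 rose. Ppp1r9b, spinophilin, stood at 25.8, 25.8 and 26.9 CPM against 34.8, 38.6 and 41.1, and Dlg2 and Nlgn1, outside the naming rule, had -0.74 ± 0.17 and -0.51 ± 0.13. Camk2a, the calcium and calmodulin kinase of synapses, rose by 1.44 ± 0.29 and Baiap2, a membrane-bending adaptor of actin, by 0.77 ± 0.15. Of 17 GABA and glycine receptor genes 1 fell and none rose, Gabra2, a GABA receptor subunit, by 0.77 ± 0.19. Of 25 glutamate receptor genes 1 was higher and none lower, and of 27 monoamine, acetylcholine and peptide receptor genes 3 were higher and none lower. Ntrk2, the receptor of BDNF, also found on glia (chromosome 13, 58806569 to 59133970), stood at 211.35, 182 and 192 CPM against 112, 126 and 87.7, a change of 0.84 ± 0.13 (adjusted p = 0.00228). Of 24 neuronal RNA-binding genes Elavl3 fell by 0.55 ± 0.12 and Rbfox1 by 0.44 ± 0.11.

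The 22 lower neuronal calls were fewer when any 1 of several libraries was left out, which also leaves the test fewer samples. They became 2 without GFP replicate 3, 3 without GFP replicate 2, 7 without GemC1 replicate 2, and 14 without GemC1 replicate 1, and 2 of the 22, Nuak1 and Ppp1r16b, kept their calls in all 9 leave-one-out fits. The 9 higher calls became 3 and 5 without GFP replicates 3 and 2 and 4 without GFP replicate 1 or GemC1 replicate 3. Tubb3, the tubulin of neurons, had -0.16 ± 0.09 (SE, adjusted p = 0.382) and Neurod6, a factor of young cortical neurons, -0.35 ± 0.13 (adjusted p = 0.146).

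**Figure D4:**
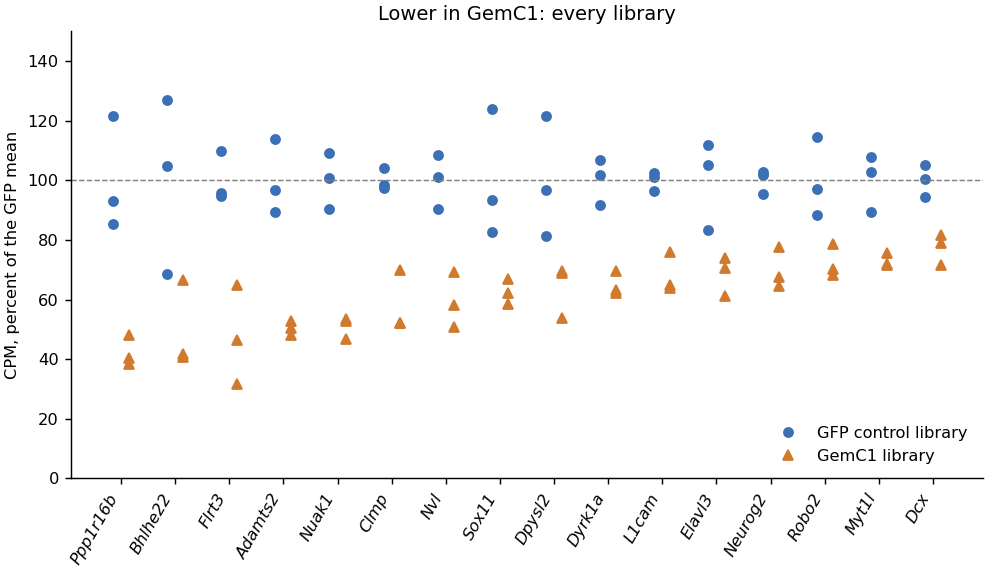
CPM of 16 lower genes in each library as percent of the GFP mean (y axis, 100 dashed), blue circles for GFP and orange triangles for GemC1. The GemC1 libraries lie below the GFP libraries in each gene; in Bhlhe22 GFP replicate 1 comes close to GemC1 replicate 1, and Sox11 is outside the naming rule.

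Outside these lists the lower genes included regulators and zinc-finger genes. Clmp, an adhesion molecule of the junction type (chromosome 9, 40685962 to 40785319), stood at 60.2, 44.9 and 44.9 CPM against 84.6, 83.8 and 89.6, a change of -0.78 ± 0.11 (SE, adjusted p = 0.00116); it shares 10.1% of its exon bases with Gm16096. Dyrk1a, a kinase tied to brain growth, fell by 0.62 ± 0.10, Nvl, an ATPase of ribosome assembly, by 0.75 ± 0.12 and Rc3h2, an RNA-decay factor, by 0.54 ± 0.09. Ptpn4 and St6gal2, outside the naming rule but called in all 9 leave-one-out fits, had -0.70 ± 0.13 and -0.65 ± 0.12. Bmf, a BH3-only protein of cell death, fell by 1.45 ± 0.32, from 6.32, 8.74 and 7.56 CPM to 3.95, 1.73 and 2.63. Zbtb33, Prdm9 and Rsad1 fell by 1.08 ± 0.26, 1.04 ± 0.24 and 1.004 ± 0.26.

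Zfp708, a zinc-finger gene, stood at 2.61, 3.62 and 3.52 CPM against 7.50, 9.01 and 8.49, a change of -1.36 ± 0.20 (SE), and shares 96.4% of its exon bases with Gm28557, so the 2 names are 1 signal. Zinc-finger symbols, a group chosen after the values were seen, made up 19 of the 259 lower genes (7.34%) and 2.24% of all genes tested. Lower genes also shared sequence features that the calls did not use. Their median exon length was 6890 bases against 3513 for all genes, and the GC content of the longest transcript was 44.2% against 49.1%. At an average log2 CPM of at least 5 the medians were 7974 against 5121 bases and 44.2% against 49.4%. The higher genes outside the lists had 3209 bases and 51.5%.

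The libraries themselves also differed along GC content. At 40% GC the smoothed deviation from the mean of all libraries was -0.09, -0.08 and -0.06 on the log2 scale in GemC1 and 0.01, 0.09 and 0.15 in GFP. In the Mcidas libraries it was 0.08, 0.06 and -0.07, so it also varied within a group. When each library's trend on GC and length was taken out, an alternative chosen after seeing the data, 126 of the 259 lower and 680 of the 756 higher genes kept their calls. Among the called genes followed by name, 19 of 56 lower and 10 of 101 higher lost the call. The lower ones were Ncam1, Dlg2, Rbfox1, Fat4, Kcnc2, Robo2, Zbtb33, Tenm4, Nyap2, Sox11, Slitrk4, Sema3c, Cadps, Gabra2, Opcml, Adgrl2, Bcl11a, Dcx and Nlgn1, and the higher ones Hapln3, Ntn1, Ctss, S100a13, Fosb, Lpcat1, Fads2, Anxa5, Agpat4 and Cd63. The sizes moved unequally. Dcx went from -0.37 to -0.15 (adjusted p = 0.217 by edgeR), Nlgn1 from -0.51 to -0.26 (0.422) and Robo2 from -0.47 to -0.27 (0.0637), while Zbtb33 went from -1.08 to -0.89 (0.0686), Fat4 from -0.48 to -0.40 (0.055) and Rbfox1 from -0.44 to -0.37 (0.0546). Over the 19 lower genes the median share of the log2 change that remained was 72.5%, and over the 10 higher ones 91.5%. Of the classes, 11 of the 22 lower neuronal and 9 of the 14 lower adhesion genes stayed called, and 30 of the 34 higher metabolic ones. The part of GC content and length in the falls was not tested beyond this.

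**Figure D5:**
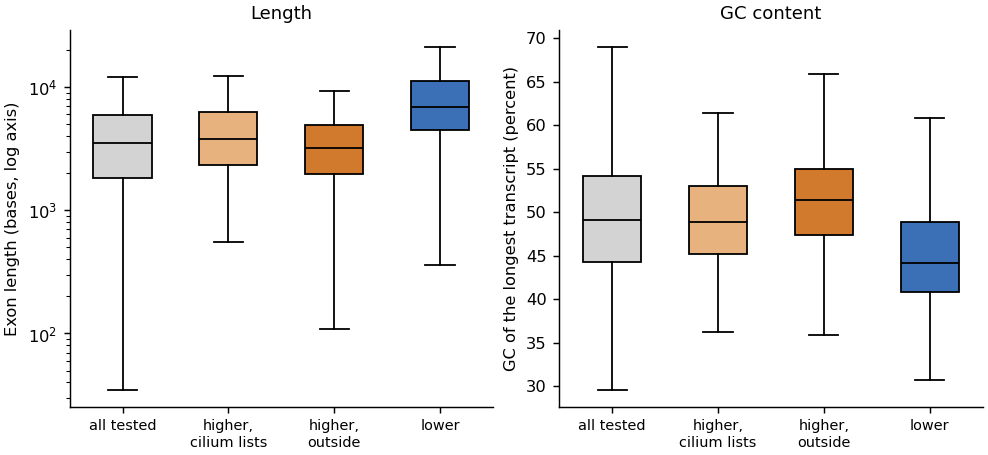
Box plots of exon length (left, bases, log axis) and GC content of the longest transcript (right, percent) for all genes tested, higher genes in and outside the cilium lists, and lower genes; boxes span the quartiles with a line at the median, and whiskers reach the farthest value within 1.5 box lengths. The lower genes have a median length of 6890 bases and 44.2% GC against 3513 bases and 49.1% for all genes.

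Besides the ependymal list, markers of microglia and of excitatory neurons moved with the groups. Of 23 tested markers of microglia and macrophages 13 were higher and all 23 were above 0, with a median of 2.21; libraries lay apart in 19. Their summed level was 140.1, 97.4 and 110.8 CPM in GemC1 and 52.6, 53.5 and 35.9 in GFP. Their mean log2 CPM was 1.88, 1.32 and 1.44 in GemC1 and -0.06, -0.11 and -1.37 in GFP. In the Mcidas libraries it was -0.03, 1.08 and 0.82. Csf1r stood at 42.7, 24.96 and 31.5 CPM against 22.3, 20.2 and 18.2, and Cx3cr1 rose by 2.18 ± 0.43 (SE). P2ry12 and C1qb, outside the naming rule, rose by 2.88 ± 0.47 and 2.60 ± 0.37. Itgam and Ctss, described above, are members of this marker list, and Adgre1 and Ctsh moved with it; its part in their rise was not tested. In sorted bulk cells, more cells of a type and more RNA per cell cannot be told apart.

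Excitatory neuron markers lay lower: 13 of 14 were below 0, 3 were called lower and the median was -0.24. Their summed level was 4487, 4179 and 4306 CPM in GemC1 and 5048, 4955 and 5784 in GFP, the lowest sum for any GFP library lying above the highest for GemC1. That level moved with the neuronal falls above, and its part in them was not tested. Any genes that the marker list shares with the neuronal lists were not taken out of either, so they need not be separate measurements. Neural progenitor markers were present in all libraries, with no single direction: of 18 tested, 11 were above 0, and Neurog2 alone was called. Fabp7, a fatty acid binding protein of radial glia, stood at 511, 696 and 527 CPM against 450, 428 and 329, with an adjusted p of 0.0877. Igf2 of meningeal cells had 76, 58 and 89 counts against 2, 5 and 3 and was the 1 of 6 meningeal markers called. All 6 lay above 0, with a median of 0.40, and libraries lay apart in 2. Clic6 was the 1 of 4 choroid plexus markers called. None of 45 endothelial, pericyte, erythroid, oligodendrocyte and interneuron markers was called by edgeR, with 2 higher and 5 lower at an unadjusted p under 0.05 and 2 and 2 by DESeq2.

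The Mcidas libraries give each value a neighbour, though the 3 GFP libraries serve as control for both factors. Against GFP, Mcidas changed Acadl by 0.92, Kcne1l by 1.17, Rab15 by 2.00, Cadm1 by 0.86 and Pidd1 by 2.90, beside 1.005, 1.27, 1.92, 0.66 and 2.53 for GemC1. Among lower genes the values were -0.32 for Nuak1, -0.29 for Ppp1r16b, -0.19 for Flrt3, 0.02 for Bhlhe22 and -0.10 for Dpysl2, beside -0.97, -1.24, -1.07, -1.01 and -0.64. Other lower genes were closer: Asic1, Tenm4 and Nvl had -0.47, -0.37 and -0.56 with Mcidas, beside -0.44, -0.34 and -0.75. Of the 259 lower genes 90.3% also lay below GFP with Mcidas, and 7 were called lower with it. For the 756 higher genes the same values were 97.5% and 600. The direct test between the factors called none of the genes named in this paragraph, with adjusted p from 0.118 to 0.2 for Nuak1, Ppp1r16b, Flrt3, Bhlhe22 and Dpysl2. It called 3 genes higher in GemC1 (0.0153% of those tested) and 7 lower (0.0358%).

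The 10 genes were Gmnc, Mcidas, Cdt1, Fosb, St6gal2, Gabra2, Ina, Ttc9, Zfp708 and Gm10800. Of those described here, Gabra2 had -0.77 with GemC1 and 0.48 with Mcidas against GFP (adjusted p of the difference 0.0431), St6gal2, a sialyltransferase, -0.65 and 0.31 (0.0106), Ina -0.37 and 0.28 (0.0446) and Zfp708 -1.36 and 0.07 (0.029). All 4 estimates against GFP were below 0 with GemC1 and above 0 with Mcidas. With Mcidas none was called against GFP by edgeR. The adjusted p was 0.257 for Gabra2, 0.243 for St6gal2, 0.203 for Ina and 0.938 for Zfp708. Mcidas itself stood at 76.8, 60.3 and 73.1 CPM in the GemC1 libraries and at 0.647, 0.663 and 0.69 in GFP. Because the year code goes with the Mcidas group, a factor and a batch cannot be told apart in these 10 differences.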

How the data were processed

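RNA from 9 sorted samples was read on an unstranded library kit, so reads of a gene and of an overlapping or antisense gene are not told apart. The deposited values are raw counts per Ensembl gene and library, per the file headers. Per the submitters' processing notes, the build was mm10 and the tools listed, without their role, were DESeq2 1.8.1, HTSeq 0.5.3 and STAR 2.5.2b. The sources used here name neither annotation nor strand setting. Of 53379 identifiers 53274 were matched to GENCODE M21 symbols (GRCm38).

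Counts were tested with edgeR 4.0.16 in R 4.3.3 (filterByExpr, minimum count 10 and total 15; TMM factors 0.96 to 1.035; 1 quasi-likelihood fit of all 9 libraries with group as the only term; two-sided; adjusted p under 0.05). CPM use the TMM-scaled totals. Total counts per library were 22914704 to 41163917, which sets the precision; no 2 replicates agreed within counting error (their chi-square divided by its degrees of freedom was 14.1 to 25.8). Where 1 group had 0 counts, folds are bounds against 3 counts per library. The script was tested on simulated data.

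The samples, gene lists and rule for named genes were chosen with earlier results of these data known. The rule takes Gmnc, Foxj1 and Cdkn1a; among called genes outside the cilium lists, with a named symbol, an average log2 CPM of at least 2 and no overlap between groups, the 10 most raised and the 10 most lowered by fold and the 8 higher and 8 lower with the smallest adjusted p; up to 3 called members per list by adjusted p; and the 3 most abundant members of each marker list. Alternatives were DESeq2 1.42.0, DESeq2 size factors, other filters, a replicate block, a fit of 6 libraries, a minimum fold of 1.2, removal of mitochondrial, globin and transgene counts, removal of each library, and a correction for GC content and length chosen after seeing the data. Some called genes are not reported here by name, though they stay in the counts.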

Additional observations from a re-analysis of the deposited data

How the results depend on the processing

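The number of higher genes (756) was within 1.5 times of that value under every alternative run except 3: it was 472 and 443 without GFP replicates 2 and 3 and 1154 with DESeq2. Leaving out libraries gave 443 to 877. The lower genes (259) numbered 557 without a low-count filter, 31 with a minimum fold of 1.2 and 663 with DESeq2, between 32 and 267 when libraries were left out (162, 161 and 163 without GemC1 replicates 1 and 2 and Mcidas replicate 2; 42 and 32 without GFP replicates 2 and 3), and 166 with the correction for GC content and length. Those lower at least 2-fold (40) numbered 92, 15 and 85 under the first 3 of these, and 10 to 53 when libraries were left out (13 and 10 without GFP replicates 2 and 3). With the replicate number as a block the calls were 623 higher and 147 lower, 610 and 132 of them shared, and 22 lower at least 2-fold. Samples with the same number did not deviate together (correlations -0.074 to 0.046), so the numbers do not pair the samples. No named gene changed direction under any alternative; 157 called genes were followed by name, and 66 of them (54 of 101 higher and 12 of 56 lower) kept the call in each alternative that tested them, the correction for GC content and length aside. Depth limits the lower calls: at an average log2 CPM under 2 no change under 0.91 was called.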
